A study of Arabidopsis thaliana with 45 samples.

Results

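The 6 genes described here code for proteins of the surface of seed oil bodies: 5 oleosins, OLEO1 (AT4G25140), OLEO2 (AT5G40420), OLEO4 (AT3G27660), OLEO3 (AT5G51210) and AT3G01570, and the caleosin ATS1 (AT4G26740). They were chosen by locus, not by a measured value, although earlier results of these data were known. All 6 of them were found among the 27587 loci of the table and passed the filter on low counts. RNA was sequenced from entire seeds of the Arabidopsis thaliana ecotype Col0. The libraries labelled cyp carry mutations of CYP79B2 and CYP79B3 (cyp79B2 cyp79B3), those labelled myb carry mutations of MYB28 and MYB29 (myb28 myb29), those labelled qko carry all 4 (cyp79B2 cyp79B3 myb28 myb29), and WT is the wild type. These genes act in glucosinolate synthesis, and the labels give neither the mutant alleles nor the age of the seeds. Seeds of each genotype were imbibed for 6 h in 10 mM KNO3 (nitrate), in 8 µM KSCN (thiocyanate) or in water, or were left dry. The 45 libraries form 16 groups, of which 13 hold 3 libraries each, while cyp in KSCN, dry myb and myb in KNO3 hold 2 each.

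Oil bodies are the droplets in which a seed stores triacylglycerol, the oil that feeds the seedling until it can photosynthesise. Each droplet is wrapped in a single layer of phospholipid that is studded with oleosins, hairpin proteins that keep droplets small and stop them from fusing. Caleosins share the hairpin and add a calcium-binding part, and ATS1 also has peroxygenase activity and is known from work on the breakdown of oil bodies during germination. The genes are switched on during seed maturation by B3-domain regulators such as ABI3 and FUS3, which bind the RY element, and by bZIP factors of abscisic acid signalling such as ABI5, which bind ABRE and G-box elements.

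The 6 genes lie on 3 chromosomes of the RefSeq TAIR10.1 assembly, and the files name no build of their own. OLEO1 spans chr4:12900430-12901577 on the plus strand, OLEO2 chr5:16173340-16174783 on the minus strand, OLEO4 chr3:10243244-10245023 on the plus strand and OLEO3 chr5:20820068-20820944 on the plus strand. AT3G01570 spans chr3:221939-222827 on the minus strand and ATS1 chr4:13473516-13475371 on the minus strand. OLEO1, OLEO2, OLEO3 and AT3G01570 have 2 exons each, and ATS1 has 6 exons. OLEO4 is annotated with 2 transcripts, of which the shorter one, of 888 bases, held 71.7% to 79.9% of the counts of the locus over the 16 group means. AT3G01570 overlaps AT3G01560 on the other strand, a locus with a mean of 829 counts per library, and OLEO1 and OLEO2 overlap AT4G25150 and AT5G40410, with means of 5.0 and 42.9 counts. The sources used here do not state strand-specific counting, so reads from such overlaps cannot be told apart.

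The 300 bases before the annotated start of each gene were searched for the letters of the elements named above. The windows of OLEO1, OLEO3, OLEO4 and ATS1 show the combinations that were found, from RefSeq TAIR10.1, read 5′ to 3′ on the strand of the gene. Capitals mark the RY letters CATGCA and the ABRE core letters ACGTG, both searched on both strands, and the G-box letters CACGTG, which hold the ABRE core on each strand. The OLEO1 window is chr4:12900130-12900429 on the plus strand, the OLEO3 window chr5:20819768-20820067 on the plus strand, the OLEO4 window chr3:10242944-10243243 on the plus strand and the ATS1 window chr4:13475372-13475671 on the minus strand.
OLEO1: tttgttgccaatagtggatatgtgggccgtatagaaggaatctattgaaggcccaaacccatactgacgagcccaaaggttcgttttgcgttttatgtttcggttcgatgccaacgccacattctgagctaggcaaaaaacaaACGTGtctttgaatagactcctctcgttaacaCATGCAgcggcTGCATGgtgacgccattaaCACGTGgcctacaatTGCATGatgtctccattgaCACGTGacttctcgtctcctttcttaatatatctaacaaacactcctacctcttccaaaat
OLEO3: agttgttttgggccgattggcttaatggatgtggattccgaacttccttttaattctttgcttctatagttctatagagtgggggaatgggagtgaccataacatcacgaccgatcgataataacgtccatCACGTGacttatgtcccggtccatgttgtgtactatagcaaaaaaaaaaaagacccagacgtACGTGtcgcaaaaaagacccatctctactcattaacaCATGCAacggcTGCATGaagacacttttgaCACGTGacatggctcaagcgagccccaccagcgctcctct
OLEO4: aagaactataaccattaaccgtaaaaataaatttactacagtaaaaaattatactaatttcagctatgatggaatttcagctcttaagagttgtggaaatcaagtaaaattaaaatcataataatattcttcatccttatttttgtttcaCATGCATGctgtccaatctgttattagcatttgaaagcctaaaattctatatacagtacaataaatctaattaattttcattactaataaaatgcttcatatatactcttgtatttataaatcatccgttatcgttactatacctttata
ATS1: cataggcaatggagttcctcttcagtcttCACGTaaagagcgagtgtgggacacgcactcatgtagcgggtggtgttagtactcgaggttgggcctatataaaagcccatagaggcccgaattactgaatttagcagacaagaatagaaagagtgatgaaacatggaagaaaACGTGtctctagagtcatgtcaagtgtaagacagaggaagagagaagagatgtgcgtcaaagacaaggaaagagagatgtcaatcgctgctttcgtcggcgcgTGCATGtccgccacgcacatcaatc

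RY letters stood in the windows of all 6 genes, against 10.3% of 27443 windows of the same length before annotated protein-coding genes. The ABRE core stood in 4 of the 6 (OLEO1, OLEO3, AT3G01570 and ATS1), against 25.6% of all windows, and in neither OLEO2 nor OLEO4. The G-box stood in 2 of the 6, OLEO1 and OLEO3, against 7.09% of all windows. RY and the ABRE core stood together in 4 of the 6, against 2.92% of all windows. OLEO1 and OLEO3 both held a pair of RY matches whose first bases lay 11 apart, and 16 of the 17 bases from the first match to the end of the second were identical between these genes. Most of these bases are the RY letters that were searched for. The bases between the matches read gcggc in OLEO1 and acggc in OLEO3. OLEO4 held overlapping RY matches (CATGCATG, found in 0.955% of all windows), in a window that precedes its longer, less abundant transcript. The OLEO2 window, chr5:16174784-16175083 on the minus strand, held RY letters at 245 and 109 bases before the start, and the AT3G01570 window, chr3:222828-223127 on the minus strand, held them at 110 bases. These matches describe letters only, and whether a protein binds there was not measured.

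**Figure D1:**
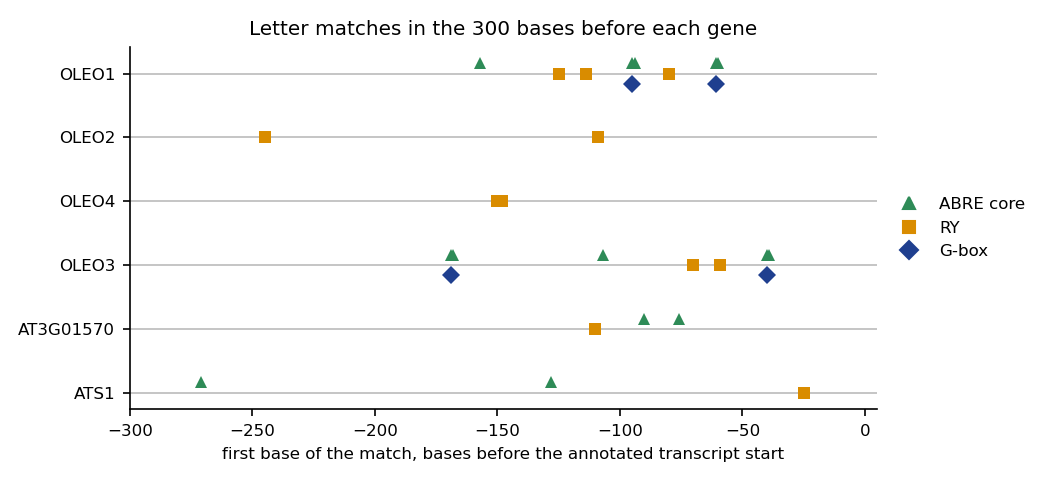
Matches of the RY, ABRE core and G-box letters in the 300 bases before the annotated start of each of the 6 genes; the horizontal axis gives the first base of a match in bases before the start, and each symbol is 1 match. RY matches appear before all 6 genes, and ABRE core matches before OLEO1, OLEO3, AT3G01570 and ATS1.

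The library totals ran from 18097331 counts in qko in KNO3 replicate 7 to 22910834, with 21363761 as the second lowest. The imbibed qko libraries of replicate 7 stood apart from replicates 4 and 6, with a chi-square per locus of 58.8 to 76.3 against them and of 6.70 to 11.7 between replicates 4 and 6 in the same groups. Among the cyp libraries in KNO3, replicates 6 and 8 differed most of all pairs, at 92.96, and WT in KNO3 replicate 6 stood at 24.7 and 25.9 against replicates 5 and 8, which differed by 4.07. Counts of the targeted genes cannot check the labels, as the mutant alleles are not given. CYP79B3 averaged 3.47 ± 0.703 CPM in cyp in water, against 0.180 ± 0.0455 CPM in WT in water (SD, n = 3 each). MYB28 had 0 counts in all 45 libraries, those of WT included. MYB29 had 0 counts in WT, and at most 14 counts in a library among the imbibed libraries labelled myb and qko. Genotypes are therefore named as the libraries are labelled. Nothing in the labels ties a replicate to a plant or seed lot of its own, so each p measures only the spread between these samples. In whole seeds, fewer cells of a type and less RNA per cell cannot be told apart. Seed coat markers, 8 genes, were counted mostly at MUM4 (mean 9.81 CPM over all libraries) and AT3G50990 (1.44 CPM). They summed to 17.3 to 19.0 CPM in qko in water and 9.04 to 10.8 CPM in WT in water. In dry seeds they summed to 8.78 to 9.59 CPM in cyp, 11.0 to 11.2 CPM in myb, 12.8 to 15.1 CPM in qko and 7.51 to 8.74 CPM in WT, with no overlap with WT in any of these cases. Pollen markers, 6 genes, summed to 26.7 to 62.3 CPM in cyp, 216 to 238 CPM in myb, 102 to 291 CPM in qko and 14.2 to 39.7 CPM in WT among dry libraries, and to at most 0.300 CPM in any imbibed library. Photosynthesis markers, 8 genes, summed to 105 to 165 CPM in cyp in water and 18.5 to 24.2 CPM in WT in water, with no overlap. Averaged over all libraries, most of that sum was RBCS1A (32.5 CPM). Endosperm markers, 7 genes, summed to 1975 to 3785 CPM in cyp, 3088 to 6146 CPM in myb, 5231 to 10239 CPM in qko and 5470 to 5726 CPM in WT in water. In dry seeds they summed to 6956 to 19645 CPM in cyp, 12541 to 37455 CPM in myb, 17591 to 35513 CPM in qko and 16098 to 18418 CPM in WT. This sum is nearly all EPR1 (mean 9001 CPM over all libraries), and the endosperm marker AT1G71250 was higher than in WT in dry cyp, myb and qko (log2 fold changes of 0.82, 2.24 and 1.57). Each marker gene had counts in at least 1 library, and the part of these tissues in the differences described here was not tested.

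In dry WT seeds the 6 genes together took 2.79 ± 0.127% of all counts (SD, n = 3). OLEO1 was the most abundant of them in every group: per kilobase of transcript it averaged 22909 CPM in dry WT seeds, against 12392 for OLEO4, 7332 for OLEO2, 4666 for AT3G01570, 1708 for ATS1 and 94.5 for OLEO3. CPM here is the usual count per unit of library size, with library sizes scaled by trimmed means (TMM), and levels between genes are compared only per kilobase. OLEO1 held 46.6% of the summed per-kilobase level of the 6 genes in dry WT seeds and between 39.1% (dry qko) and 57.2% (cyp in KSCN) over the 16 groups. OLEO3, which was low throughout, held at most 0.457% of that sum as a group mean, in dry cyp seeds. The composition thus differed between groups. The share of OLEO4 was 20.8% in dry cyp and 13.9% in cyp in water, against 25.3% in dry WT and 22.9% in WT in water. The share of AT3G01570 was 18.5% in dry qko and 9.51% in dry WT.

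**Figure D2:**
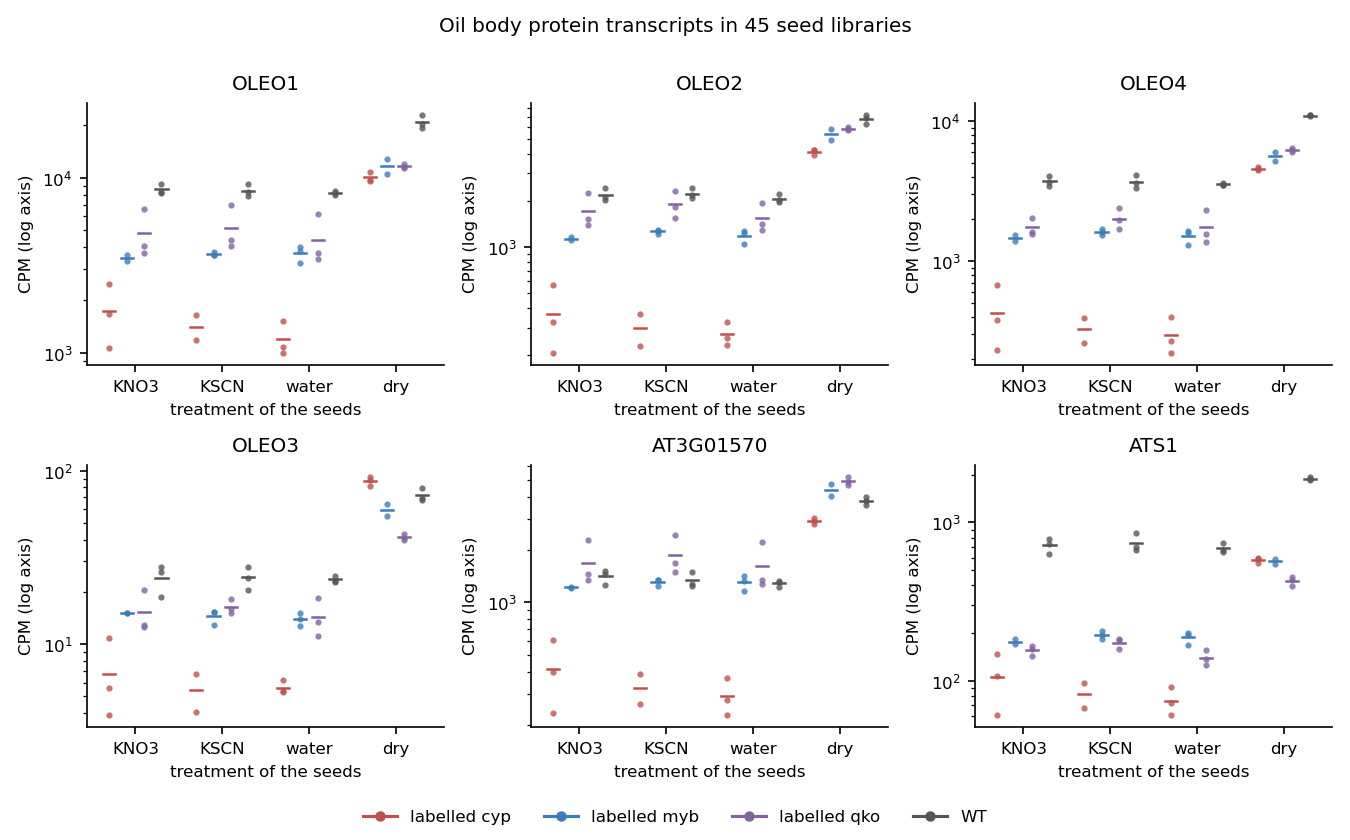
Levels of the 6 oil body protein genes in all 45 libraries, in CPM with TMM scaling on a log axis, by treatment and genotype as labelled; points are libraries and short lines are group means. For each of the 6 genes the imbibed cyp libraries form the lowest groups, and dry libraries lie above the imbibed libraries of their own genotype.

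Across the 16 groups the order of levels was much the same for OLEO1, OLEO2 and OLEO4: dry WT highest, the other dry groups next, imbibed WT after these, and imbibed cyp lowest. For OLEO1 the groups dry myb (mean 11644 CPM) and dry qko (11576 CPM) overlapped, and the 3 imbibed WT groups overlapped each other at 8562 CPM in KNO3, 8403 CPM in KSCN and 8173 CPM in water. The lowest 3 groups of OLEO1 were cyp in KNO3, in KSCN and in water, at 1736, 1408 and 1201 CPM, which overlapped each other and no other group. OLEO3 was highest in dry cyp, at 87.3 CPM, above dry WT at 72.5 CPM without overlap. AT3G01570 was highest in dry qko, at 4904 CPM, which overlapped dry myb at 4405 CPM. For ATS1, the 3 imbibed WT groups, at 686 to 744 CPM, lay above the dry groups of all 3 mutants, at 429 to 577 CPM.

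Imbibition of WT seeds came with less transcript of all 6 genes. OLEO1 had 7938, 8186 and 8396 CPM in WT in water, against 20296, 19258 and 22852 CPM in dry WT. Every water library lay below every dry one, and the fitted level in water was 0.393 of that in dry seeds (log2 change, the log2 of the fold, -1.35, SE 0.24, adjusted p = 5.2e-06, edgeR's quasi-likelihood test with Benjamini-Hochberg adjustment, as for all adjusted p below). The caleosin ATS1 had 651, 671 and 737 CPM in WT in water and 1857, 1942 and 1869 CPM in dry WT (log2 change -1.46, SE 0.18, adjusted p = 4.2e-09). OLEO2 had a log2 fold change of -1.72 (SE 0.22, adjusted p = 1.9e-08), and OLEO4, OLEO3 and AT3G01570 fell by 1.63, 1.62 and 1.56 on the log2 scale. All 6 genes were called lower, where 33.5% of the 18066 loci tested were. All 6 also had no overlap between the groups, and the share of all loci without overlap was not computed, here or below. The median log2 fold change was -1.59 for the 6 genes and 0.08 for all loci tested. A fold is relative to the scaling: with libraries scaled by total counts, the median of all loci was 0.83 and that of the 6 genes -0.84, all 6 were still called lower, and lower calls made up 17.5% of all calls instead of 47.4%.

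The same direction held in each mutant. In the libraries labelled cyp, OLEO1 had 1083, 1524 and 995 CPM in water, against 9739, 10773 and 9617 CPM in dry seeds, and OLEO3 had 5.39, 6.18 and 5.28 CPM in water, against 92.1, 81.3 and 88.5 CPM in dry seeds. Groups lay far apart for both genes, with log2 fold changes of -3.06 (SE 0.25, adjusted p = 1.8e-13) for OLEO1 and -3.96 (SE 0.23, adjusted p = 1.9e-17) for OLEO3. All 6 genes were called lower in water in cyp, where 38.9% of loci were, with log2 fold changes of -3.96 to -2.95. In myb all 6 were called lower, at -2.18 to -1.59, where 31.3% of loci were. In qko all 6 were called lower, at -1.93 to -1.39, where 32.2% of loci were. The 6 genes had medians of -3.63 (cyp), -1.82 (myb) and -1.62 (qko), beside medians over all loci of 0.04, 0.07 and 0.09. With total-count scaling these all-loci medians were 0.78, 0.75 and 0.81, all 6 genes were still called lower in each mutant, and lower calls made up 27.4% of all calls for cyp instead of 48.8%, 18.8% for myb instead of 47.4% and 18.2% for qko instead of 46.6%.

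The response to water was larger in cyp than in WT for every one of the 6 genes. The difference in response, tested as an interaction, was -2.34 on the log2 scale for OLEO3 (SE 0.30, adjusted p = 1.4e-07), -2.33 for OLEO4, -2.22 for OLEO2, -1.77 for AT3G01570, -1.72 for OLEO1 (adjusted p = 9.5e-05) and -1.49 for ATS1 (SE 0.25, adjusted p = 1e-05). All 6 were called lower, where 22.8% of loci were, and the median was -1.99 for the 6 genes and -0.10 for all loci. In myb none of the 6 differences from the WT response passed (differences of -0.47 to -0.13, adjusted p 0.37 to 0.81, with 95% intervals within -1.12 and 0.50), where 11.5% of loci were called. In qko none passed either (-0.21 to 0.09, adjusted p 0.67 to 0.96, intervals within -0.86 and 0.69), where 27.7% of loci were called. For both mutants 0 of the 6 genes had an unadjusted p under 0.05, and 0 were called by DESeq2. Of the 18066 loci, 4513 (myb) and 6915 (qko) had such a p, and DESeq2 called 2318 (myb) and 5224 (qko). Fitted in myb and WT alone, OLEO2 (-0.48, adjusted p = 0.035) and OLEO3 (-0.49, adjusted p = 0.026) were called lower in their response, where 2969 of 17056 loci were called. In myb, lower calls made up 53.3% of all calls and 65.5% with total-count scaling. Fitted without the imbibed cyp libraries of replicate 8, or in cyp and WT alone, the 6 cyp differences kept their direction and their calls. Those fits called 6591 of 18419 and 8085 of 16943 loci.

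**Figure D3:**
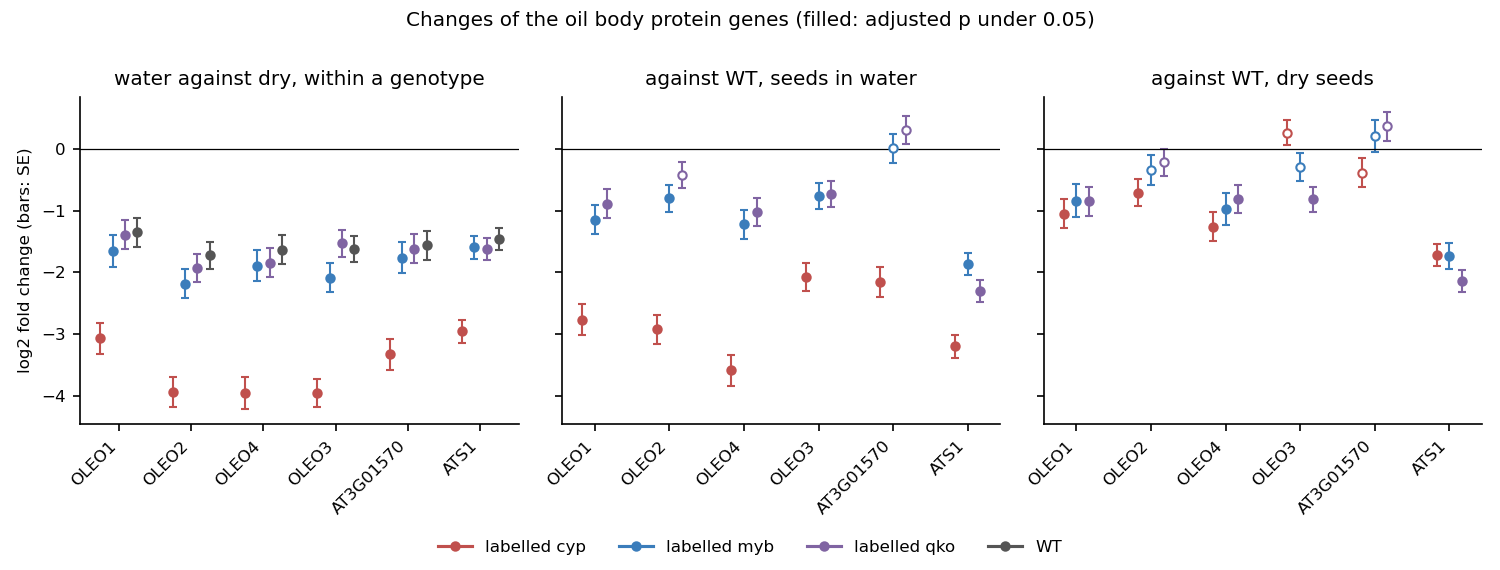
Fitted log2 fold changes of the 6 genes with SE bars, for water against dry within each genotype, for each mutant against WT in water, and for each mutant against WT in dry seeds; filled points have an adjusted p under 0.05. The water response is largest in cyp (-3.96 to -2.95), and AT3G01570 lies near or above 0 in myb and qko against WT.

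Summed over the 6 genes, the share of all counts was 0.293 ± 0.0671% in cyp in water and 1.83 ± 0.0652% in dry cyp. It was 0.874 ± 0.0685% in myb in water and 1.91 ± 0.158% in dry myb (n = 2), 0.997 ± 0.299% in qko in water and 1.85 ± 0.0258% in dry qko, and 1.67 ± 0.0250% in WT in water and 2.79 ± 0.127% in dry WT (SD, n = 3 otherwise). The dry libraries of the 3 mutants overlapped each other and lay below dry WT. In water cyp lay below all others, myb and qko overlapped, and both lay below WT. In qko in water, replicate 7 had 1.34%, and replicates 4 and 6 had 0.850% and 0.801%.

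**Figure D4:**
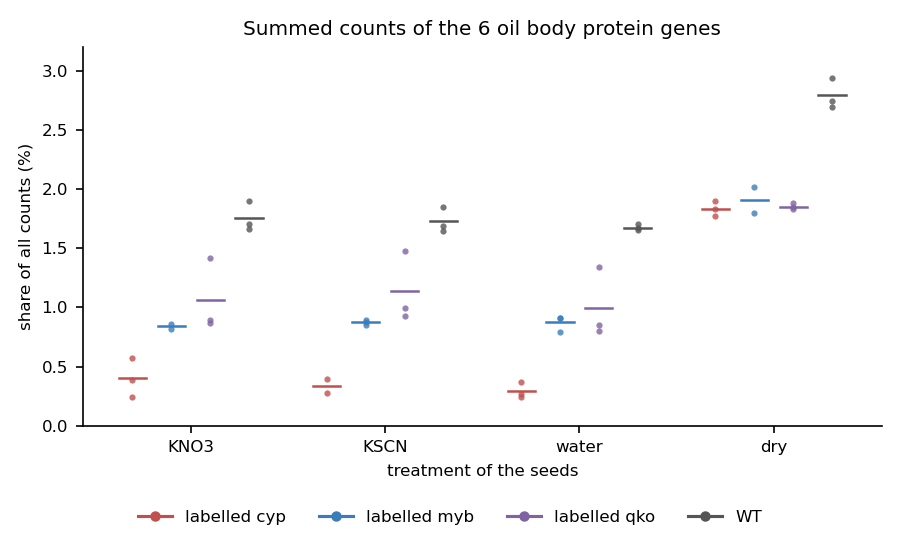
Summed counts of the 6 genes as a percentage of all counts in each of the 45 libraries, by treatment and genotype as labelled; points are libraries and short lines are group means. Imbibed cyp libraries sit between 0.240% and 0.572%, below all other libraries.

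In the model of all 16 groups none of the 6 genes passed the threshold in nitrate or thiocyanate against water. In WT, OLEO1 had 8174, 9225 and 8287 CPM in KNO3 and 8233, 7802 and 9174 CPM in KSCN, against 7938, 8186 and 8396 CPM in water, and the groups overlapped. Groups overlapped for every one of the 6 genes in these comparisons except ATS1 in qko, with 158 to 182 CPM in KSCN and 126 to 157 CPM in water. Called members were 0 of 6 in KNO3 against water in myb, qko and WT, where 0% of loci were called in each, and 0 of 6 in cyp, where 1.98% of loci were. In KSCN against water 0 of 6 were called in each genotype, where 0% of loci were called in each. Over all loci, unadjusted p under 0.05 were found for 2928 (cyp), 291 (myb), 556 (qko) and 366 (WT) loci in KNO3 and for 339 (cyp), 2270 (myb), 742 (qko) and 173 (WT) loci in KSCN. DESeq2 called none of the 6 genes in any of these 8 comparisons, and over all loci it called 552 in cyp, 0 in myb, 1 in qko and 2 in WT in KNO3, and in KSCN 3 in myb and 0 in the other genotypes. The 95% intervals of the log2 fold changes show how precise the estimates were. Each interval is for 1 gene, with no adjustment for the number of genes and no use of replicate numbers. In KNO3 the intervals lay within -0.21 and 1.0 (cyp), -0.62 and 0.61 (myb), -0.47 and 0.59 (qko), and -0.40 and 0.59 (WT). In KSCN they lay within -0.59 and 0.75 (cyp), -0.49 and 0.55 (myb), -0.26 and 0.74 (qko), and -0.43 and 0.55 (WT).

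The cyp libraries in KNO3 had the widest spread. OLEO1 had 1062, 1671 and 2474 CPM in cyp in KNO3 (replicates 6, 7 and 8), against 1083, 1524 and 995 CPM in cyp in water (replicates 7, 8 and 9). The groups overlapped, and the log2 fold change was 0.53 (SE 0.23, adjusted p = 0.24). Of the 6 genes, 4 had an unadjusted p under 0.05 there (OLEO1, OLEO4, AT3G01570 and ATS1), with log2 fold changes of 0.49 to 0.53, and the smallest adjusted p was 0.14, for ATS1. Without replicate 6 of cyp in KNO3, 5 of the 6 genes were called higher in KNO3, OLEO3 not among them, and without replicate 8 of cyp in water 1 was, ATS1 (log2 fold change 0.67, adjusted p = 0.038). With a block for replicate number, 5 of the 6 genes were called higher, among them OLEO1 (0.62, adjusted p = 0.015) and ATS1 (0.62, adjusted p = 0.0026). Over all loci the block called 2284 of 18066, instead of 358. The groups shared only 2 replicate numbers, too few to judge whether they pair. Lower calls made up 42.5% of all calls in this comparison and 53.1% with total-count scaling.

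In dry seeds the libraries labelled cyp held less OLEO1, OLEO2, OLEO4 and ATS1 than WT. ATS1 had 551, 597 and 585 CPM in dry cyp, against 1857, 1942 and 1869 CPM in dry WT, a log2 fold change of -1.71 (SE 0.18, adjusted p = 4e-09). OLEO4 had 4498, 4741 and 4560 CPM in dry cyp and 11022, 10842 and 11147 CPM in dry WT (log2 change -1.26, SE 0.23, adjusted p = 7.4e-05). OLEO1 fell by 1.05 (adjusted p = 0.0008) and OLEO2 by 0.71 (adjusted p = 0.013) on the log2 scale. OLEO3 and AT3G01570 did not pass: OLEO3 had a log2 fold change of 0.27 (adjusted p = 0.34) and AT3G01570 of -0.38 (adjusted p = 0.22), although the libraries of the groups did not overlap for either. Both were called in a fit of dry cyp and dry WT alone (adjusted p = 0.0045 and 0.00018), where 8044 of 15331 loci were called. In the model of all 16 groups 4 of 6 were called lower, where 13.4% of loci were. The median was -0.88 for the 6 genes and 0.03 for all loci. The scaling mattered here. With total-count scaling the median of all loci was 0.41, OLEO2 was not called (-0.33, adjusted p = 0.19), OLEO3 was called higher (0.65, adjusted p = 0.0062), AT3G01570 stood at 0.00, OLEO1, OLEO4 and ATS1 were still called lower, and lower calls made up 6.09% of all calls instead of 45.4%.

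After imbibition every one of the 6 genes was lower in cyp than in WT. In water OLEO4 had 270, 397 and 221 CPM in cyp, against 3506, 3485 and 3655 CPM in WT, a fitted level of 0.0834 of WT (log2 change -3.58, SE 0.25, adjusted p = 2.6e-14). ATS1 had 72.2, 91.5 and 60.5 CPM in cyp and 651, 671 and 737 CPM in WT (log2 change -3.20, SE 0.19, adjusted p = 2.8e-16). No library of cyp overlapped WT for any of the 6 genes, and the share of all loci without overlap was not computed. The smallest difference in water was that of OLEO3, at -2.07 (SE 0.23, adjusted p = 9.7e-10). All 6 were called lower in water, where 31.9% of loci were, with a median of -2.85. All 6 were also called lower in KNO3 (-3.13 to -1.76), where 30.3% of loci were, and in KSCN (-3.50 to -2.03), where 29.8% were, and the all-loci median was 0 in the 3 treatments. With total-count scaling these all-loci medians were 0.36 in water, 0.32 in KNO3 and 0.38 in KSCN, all 6 genes were still called lower in each, and lower calls made up 27.5%, 28.2% and 26.0% of all calls instead of 50.6%, 51.6% and 50.9%.

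In the libraries labelled myb, 3 of the 6 genes were lower than in WT in dry seeds and 5 in imbibed seeds. In dry seeds OLEO1 had 12834 and 10454 CPM in myb (n = 2) and 20296, 19258 and 22852 CPM in WT, and the groups did not overlap (log2 change -0.84, SE 0.27, adjusted p = 0.012). ATS1 had 590 and 546 CPM in dry myb, against 1857, 1942 and 1869 CPM in dry WT (log2 change -1.73, SE 0.21, adjusted p = 2.1e-08), and OLEO4 fell by 0.97 on the log2 scale (adjusted p = 0.0035). These 3 of 6 were called lower, where 17.3% of loci were. OLEO2, OLEO3 and AT3G01570 stood at -0.34, -0.29 and 0.21 (adjusted p = 0.29, 0.34 and 0.54). Without replicate 9 of dry myb, ATS1 alone was still called, OLEO1 had an adjusted p of 0.13 and OLEO4 one of 0.056. Fitted with dry myb and dry WT alone, 5 were called, OLEO2 and OLEO3 in addition, where 8338 of 15461 loci were called. Lower calls made up 45.6% of all calls in dry seeds and 30.5% with total-count scaling, under which the all-loci median was 0.14.

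In imbibed seeds 5 of the 6 genes were called lower in myb than in WT in each solution, and AT3G01570 was the exception in all 3. AT3G01570 had 1405, 1328 and 1165 CPM in myb in water, against 1226, 1312 and 1330 CPM in WT in water, with overlap and a log2 fold change of 0.01 (95% interval -0.46 to 0.48). ATS1 had 201, 195 and 169 CPM in myb in water and 651, 671 and 737 CPM in WT in water (log2 change -1.87, SE 0.18, adjusted p = 1.9e-10), the largest difference of the 6. OLEO4, OLEO1, OLEO2 and OLEO3 fell by 1.22, 1.15, 0.79 and 0.76 on the log2 scale. The share of loci called lower was 17.7% in water, 12.3% in KNO3 and 13.9% in KSCN. In KNO3 AT3G01570 stood at -0.21 (adjusted p = 0.62) and in KSCN at -0.03 (adjusted p = 0.96). In KNO3, OLEO3 (-0.67, adjusted p = 0.034) lost its call without WT replicate 6 (adjusted p = 0.12) or 8 (0.076), without myb replicate 6 or 9 (0.15 each) and with total-count scaling (0.056), and OLEO2 lost it without myb replicate 6 (0.057). Lower calls made up 49.7% of all calls in water and 45.9% in KNO3, and 39.4% and 32.2% with total-count scaling.

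In the libraries labelled qko the caleosin was the gene furthest below WT. ATS1 had 454, 399 and 435 CPM in dry qko, against 1857, 1942 and 1869 CPM in dry WT (log2 change -2.14, SE 0.18, adjusted p = 3e-12). It had 136, 126 and 157 CPM in qko in water and 651, 671 and 737 CPM in WT in water (log2 change -2.30, SE 0.18, adjusted p = 6.5e-13). AT3G01570 stood on the other side, with 4849, 5211 and 4653 CPM in dry qko and 3600, 3798 and 3996 CPM in dry WT, without overlap, but its log2 fold change of 0.37 did not pass (95% interval -0.10 to 0.84, adjusted p = 0.19). In KSCN it stood at 0.49 (adjusted p = 0.075), and without qko replicate 6 it was called higher (0.63, adjusted p = 0.037). OLEO1, OLEO4, OLEO3 and ATS1 were called lower in each treatment, which is 4 of 6 where 23.5% of loci were called lower in dry seeds, 24.9% in water, 24.4% in KNO3 and 25.6% in KSCN. OLEO2 stood at -0.21 in dry seeds, -0.42 in water, -0.35 in KNO3 and -0.23 in KSCN (adjusted p 0.11 to 0.44). In dry seeds OLEO3 had 41.0, 42.9 and 39.7 CPM in qko and 69.7, 79.6 and 68.0 CPM in WT (log2 change -0.81, SE 0.21, adjusted p = 0.0013). Fitted with dry qko and dry WT alone, OLEO2 was called lower (-0.21, adjusted p = 0.018) and AT3G01570 higher (0.37, adjusted p = 0.00039). That fit called 10048 of 15213 loci.

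Replicate 7 of the imbibed qko libraries moved these values. OLEO1 had 3700, 3417 and 6158 CPM in qko in water (replicates 4, 6 and 7), against 7938, 8186 and 8396 CPM in WT in water, and replicate 7 was nearest to WT. Its log2 fold change was -0.89 (SE 0.23, adjusted p = 0.0019) and -1.21 without the qko libraries of replicate 7. Without these libraries OLEO2 was called lower in water (-0.62, adjusted p = 0.017) and in KNO3 (-0.59, adjusted p = 0.023). In KSCN, OLEO1 (-0.71, adjusted p = 0.011) lost its call without qko replicate 4 (adjusted p = 0.056) or 6 (0.070), and OLEO3 (-0.57, adjusted p = 0.023) without qko replicate 4 (0.059) or 6 (0.075) or WT replicate 8 (0.11). In KNO3, where its groups overlapped, OLEO3 (-0.66, adjusted p = 0.010) lost its call without qko replicate 4 (0.057) or 6 (0.062) or WT replicate 6 (0.053), and with qko and WT in KNO3 alone (0.059).

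By its label, qko holds the mutations of cyp and of myb, and on that premise its level was set against the sum of their log2 differences from WT. At the targeted genes qko and cyp differed, so the premise rests on the labels alone: CYP79B3 averaged 0.850 ± 0.264 CPM in qko in water and 3.47 ± 0.703 CPM in cyp in water (SD, n = 3 each), and CYP79B2 had 0 counts in qko in water. In water OLEO1 averaged 4425 ± 1507 CPM in qko, 1201 ± 283 CPM in cyp, 3693 ± 407 CPM in myb and 8173 ± 229 CPM in WT (SD, n = 3 each). All 6 genes lay above that sum in water, where 31.7% of loci were called higher: the excess was 3.79 for OLEO4 (SE 0.33, adjusted p = 1.1e-11), 3.30 for OLEO2, 3.03 for OLEO1, 2.77 for ATS1, 2.45 for AT3G01570 and 2.10 for OLEO3 (SE 0.31, adjusted p = 5.6e-07) on the log2 scale. The median was 2.90 for the 6 genes and 0.03 for all loci. In dry seeds 3 of the 6 were above the sum, where 11.5% of loci were called higher: OLEO4 by 1.41 (SE 0.35, adjusted p = 0.0023), ATS1 by 1.31 (SE 0.26, adjusted p = 0.0003) and OLEO1 by 1.04 (SE 0.35, adjusted p = 0.026). OLEO2 (0.83, adjusted p = 0.059), AT3G01570 (0.54, adjusted p = 0.27) and OLEO3 (-0.79, adjusted p = 0.052) did not pass, and OLEO3 stood on the other side of 0. OLEO1 lost its dry call without replicate 9 of dry myb (adjusted p = 0.13), of dry WT (0.056) or of dry cyp (0.052), and with total-count scaling (0.55, adjusted p = 0.19), under which OLEO3 was called lower (-1.29, adjusted p = 0.00058). OLEO2 was called higher with DESeq2 (adjusted p = 0.024) and with RLE scaling (0.040), and OLEO3 lower without a filter (0.039) and without replicate 8 of dry WT (0.047). Without the qko libraries of replicate 7 both were called (0.034 and 0.031), where 5630 of 17950 loci were called. In a fit of the dry groups alone all 6 were called, OLEO3 as lower, where 7180 of 16129 loci were. With total-count scaling the all-loci median was -0.40 in water and -0.53 in dry seeds, all 6 genes were still called higher in water, and lower calls made up 69.6% of all calls in water and 93.4% in dry seeds, instead of 47.5% and 54.6%.

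Ratios between genes of 1 library do not depend on how libraries are scaled. After the levels had been seen, ATS1 and AT3G01570 were set against OLEO1 in this way. Per 100 OLEO1 counts there were 5.76 ± 0.287 ATS1 counts in dry cyp, 4.91 ± 0.443 in dry myb (n = 2), 3.71 ± 0.157 in dry qko and 9.14 ± 0.952 in dry WT (SD, n = 3 otherwise). In water the ratio was 6.25 ± 0.359 in cyp, 5.11 ± 0.233 in myb, 3.30 ± 0.655 in qko and 8.39 ± 0.336 in WT (SD, n = 3 each). No mutant library reached the lowest WT library in any treatment. The mean log2 difference from WT over the 4 treatments was -0.54 for cyp, -0.77 for myb and -1.33 for qko.

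The ratio of AT3G01570 moved the other way. Per 100 OLEO1 counts there were 29.1 ± 2.02 AT3G01570 counts in dry cyp, 37.9 ± 1.35 in dry myb (n = 2), 42.4 ± 3.14 in dry qko and 18.3 ± 1.23 in dry WT (SD, n = 3 otherwise). In water there were 24.2 ± 1.31 in cyp, 35.3 ± 2.01 in myb, 36.4 ± 0.721 in qko and 15.8 ± 0.299 in WT (SD, n = 3 each). Every mutant library lay above every WT library of its treatment. The mean log2 difference from WT over the 4 treatments was 0.58 in cyp, 1.12 in myb and 1.18 in qko. Both ratios were chosen for these differences after the levels had been seen, and libraries of 1 replicate number recur over the imbibed treatments, so they are given as a description with no test. Without the qko libraries of replicate 7, the mean log2 difference in qko was -1.19 for the ATS1 ratio and 1.21 for the AT3G01570 ratio. The imbibed libraries of replicate 7 held 2.51 to 2.62 ATS1 counts per 100 OLEO1 counts, against 3.67 to 4.11 in the other imbibed qko libraries.

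**Figure D5:**
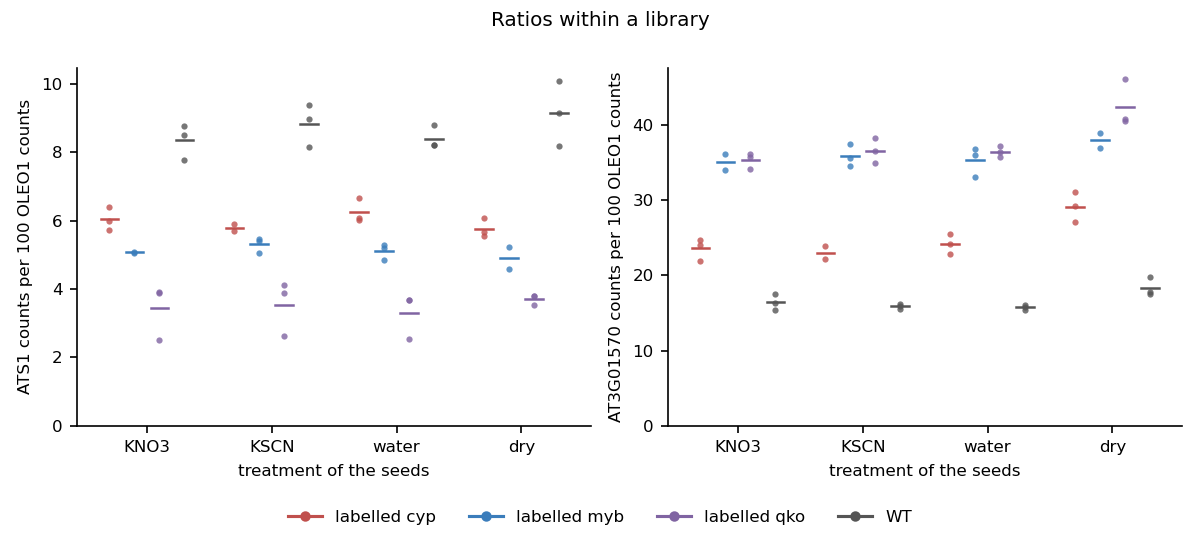
Counts of ATS1 (left) and of AT3G01570 (right) per 100 counts of OLEO1 within each of the 45 libraries, by treatment and genotype as labelled; points are libraries and short lines are group means. For ATS1 all mutant libraries lie below the WT libraries of the same treatment, and for AT3G01570 all lie above.

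Other oil body proteins mostly fell with imbibition too. Of 13 other oleosins 6 could be tested, and in WT all 6 of these were lower in water than in dry seeds, beside 33.5% of all loci (median log2 fold change -1.93, against 0.08 for all loci), led by AT5G56100 (-2.70, SE 0.21, adjusted p = 1.7e-13), AT2G25890 (-2.22) and AT3G18570 (-2.07). Of 7 steroleosins found, sterol dehydrogenases of the oil body surface, 6 fell and 1 did not pass, and HSD5 (AT4G10020) fell by 2.02 on the log2 scale. HSD1 is annotated at AT5G50600 and AT5G50700, which are near-identical, so the split of reads between them is uncertain: the copy AT5G50600 fell by 2.26 (SE 0.19, adjusted p = 1.4e-12). Of 6 other caleosins 3 were tested, of which 2 fell and 1 did not pass, with ATPXG2 (AT5G55240) at 670 ± 60.4 CPM in WT in water and 1945 ± 216 CPM in dry WT (log2 change -1.54, SE 0.20, adjusted p = 1.7e-08). The storage proteins, which fill the protein bodies of the same cells, fell in 9 of 9 cases (median -1.65). Of 10 genes of lipid droplet assembly and turnover 6 fell, 1 rose and 3 did not pass. The counts of lists here and in the next paragraph are with TMM scaling only. With total-count scaling the median of all loci in WT was 0.83 instead of 0.08, and the lists were not recounted. With TMM scaling, 6710 of the 18066 loci tested rose and 6047 fell. Beside these counts, enzymes of the oil itself were also called in both directions. Of 11 tested genes of triacylglycerol synthesis 4 rose, 3 fell and 4 did not pass, and FAD3 (AT2G29980), which makes linolenic acid, rose by 4.20. Of 10 genes of triacylglycerol breakdown 3 rose, 2 fell and 5 did not pass. Among 13 tested seed maturation regulators 5 rose, 6 fell and 2 did not pass, and EEL (AT2G41070), ABI5 (AT2G36270) and FUS3 (AT3G26790) had log2 fold changes of -2.27, -2.21 and -1.68.

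In imbibed cyp seeds other oil body genes were lower than in WT as well. In water all 6 tested other oleosins were lower in cyp than in WT, beside 31.9% of all loci (median -1.84, all loci 0), and of the steroleosins 5 were lower, 1 higher and 1 did not pass (median -1.41). The difference in response to water between cyp and WT was called lower for 4 of the 6 other oleosins, with 2 not passing, for 5 of 7 steroleosins, with 1 higher and 1 not passing, and for 5 of 9 storage proteins, with 4 not passing, beside 22.8% of all loci. In dry seeds 1 of the 6 other oleosins was called lower and none higher in each mutant, beside shares of all loci called lower of 13.4% in cyp, 17.3% in myb and 23.5% in qko: GRP14 (AT5G07510) in cyp (-3.68, SE 0.29, adjusted p = 1.8e-11) and in myb (-1.43, adjusted p = 8e-05), and AT3G18570 in qko (-0.80, adjusted p = 0.0056). GRP14 was low, at 0.380 ± 0.184 CPM in dry cyp, 1.83 ± 0.152 CPM in dry myb (n = 2) and 4.95 ± 0.388 CPM in dry WT (SD, n = 3 otherwise). It had at most 76 counts in a dry WT library. Storage proteins were lower in dry seeds in 8 of 9 cases in cyp (median -0.80) and in 7 of 9 in myb (median -1.17), and in qko 7 were lower and 1 higher (median -1.67), to be read beside the same shares of all loci. The albumin gene SESA3 (AT4G27160) averaged 7807 ± 458 CPM in dry cyp and 49248 ± 5042 CPM in dry WT (SD, n = 3 each), although SESA1 to SESA4 share much sequence and the split of their reads is uncertain. SDP1 (AT5G04040), the lipase that starts oil breakdown, was higher than WT in dry qko, at 448 ± 12.6 CPM against 172 ± 11.3 CPM (log2 change 1.38, SE 0.11, adjusted p = 4.2e-13), and in dry myb (0.57, adjusted p = 0.00017).

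Over the 16 group means of log2 CPM, the 6 genes followed one shared profile to different degrees. Pearson's r with the mean of the 6 standardised profiles was 0.994 for OLEO1, 0.994 for OLEO4, 0.989 for OLEO2, 0.968 for OLEO3, 0.941 for AT3G01570 and 0.912 for ATS1. That mean contains the gene itself, which raises these values of r. Between pairs of the 6 genes r ran from 0.725 (AT3G01570 and ATS1) to 0.995 (OLEO1 and OLEO4). Among 12155 loci with a mean of at least 5 CPM, those most like the mean profile were FER2 (AT3G11050, r = 0.997), a ferritin that stores iron in seeds, AIG2L (AT5G39720, r = 0.994), SOUL-1 (AT2G37970, r = 0.994), the oleosin AT3G18570 (r = 0.993) and AT3G05640 (r = 0.992). The group means of FER2 ran from 97.0 to 1697 CPM. These points share libraries and the step between dry and imbibed seeds, so the correlations describe likeness over these groups only.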

How the data were processed

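RNA of entire seeds was sequenced as paired reads of 100 bases (45 libraries, 16 groups by the labels). The deposited values are estimated counts per transcript, which the authors made with Salmon, per the submitters' processing notes. The Salmon version, its index and the build were not given in the sources used here. Of the values, 41.6% are not whole. Counts of 48268 transcripts were summed per locus (27587) and rounded, and names came from the RefSeq TAIR10.1 table. In edgeR 4.0.16 (R 4.3.3), loci were filtered by group (minimum count 10, minimum total 15; 18066 tested), scaled by TMM and fitted in 1 quasi-likelihood model of 16 groups with 29 comparisons. Benjamini-Hochberg adjustment ran over all tested loci of 1 comparison, and a locus was called where adjusted p was under 0.05. SEs are on the log2 scale. DESeq2 1.42.0, other scalings, no filter, only the groups compared, a replicate block and leaving out libraries were alternatives. The test was checked on simulated counts. Pairing by replicate number was judged only where 3 numbers were shared between groups. By this rule, KNO3 or KSCN and water were paired in qko, where the block changed no call. The residual correlations there were 0.338 to 0.562 and 0.371 to 0.625. KNO3 and water in cyp shared 2 numbers (residual correlation 0.363), too few to judge pairing. The 6 genes, the lists and the likeness rule were chosen with earlier results of these data known. The rule for named genes took the 6 genes in every comparison, of each other list up to 3 called loci by size of change, if they averaged 1 CPM or more (WT water against dry, and dry mutants against dry WT), the 5 loci most like the mean profile and the targeted genes; the text names part of these, chosen after their values were seen.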

Additional observations from a re-analysis of the deposited data

Results flagged for a closer look

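In cyp the response to 6 h in water differed from that of WT by the interaction test for all 6 genes: -1.72 on the log2 scale for OLEO1, -2.22 for OLEO2, -2.33 for OLEO4, -2.34 for OLEO3, -1.77 for AT3G01570 and -1.49 for ATS1 (adjusted p 1.4e-07 to 9.5e-05).

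The level in qko differed from the sum of the cyp and myb differences by the test of that contrast. In dry seeds the excess was 1.04 for OLEO1, 1.41 for OLEO4 and 1.31 for ATS1 on the log2 scale. In water it was 3.03 for OLEO1, 3.30 for OLEO2, 3.79 for OLEO4, 2.10 for OLEO3, 2.45 for AT3G01570 and 2.77 for ATS1.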

How the results depend on the processing

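No fold change of the 6 genes that was called reversed under any alternative run. Among 203 results per setting, 198 kept direction and call with total-count scaling, 202 each with RLE scaling, with no filter and with DESeq2, and 188 with only the groups compared. The number of the 6 genes called changed by more than 1.5 times in the following cases. With the replicate block, 5 were called for KNO3 against water in cyp instead of 0, and the block changed no other call. Over all loci, the block called 2284 of 18066 there instead of 358. In that comparison it rests on 2 shared numbers, too few to judge pairing. With only the groups compared, 5 instead of 3 were called for myb against WT in dry seeds, 2 instead of 0 for the response of myb against WT, and 6 instead of 3 for qko against the sum in dry seeds. Without the qko libraries of replicate 7 the last was 5, where 5630 of 17950 loci were called. Over all loci, the 3 fits of only the groups compared called 8338 of 15461, 2969 of 17056 and 7180 of 16129. Leaving out 1 library at a time gave 0 to 5 for KNO3 against water in cyp (5 without replicate 6 in KNO3), 1 to 3 for myb against WT in dry seeds (1 without myb replicate 9), 3 to 5 for myb against WT in KNO3 (3 without myb replicate 6) and 2 to 4 for qko against WT in KSCN (2 without qko replicate 4). Fitted in fewer groups, a comparison has its own estimate of the spread; the cause of the other changes was not tested. Of 96 group levels, 56 moved by more than 1 SD with CPM on library totals. In the ratios to OLEO1, chosen after seeing the data like their alternatives, no direction changed without any 1 library. With 2 or 3 libraries a group, SEs of the 6 genes in the comparisons of 2 groups were 0.17 to 0.30 (log2), which limits what could be called.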
